A study of Mus musculus with 2 samples.

Results

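The expression of 10 matrix metalloproteinase genes was read in every cell lineage of mouse pancreatic tumors: Mmp2, Mmp3, Mmp7, Mmp9, Mmp10, Mmp11, Mmp12, Mmp13, Mmp14 and Mmp19. They were taken by symbol from the deposited gene table, where they are 10 of 19059 genes and 10 of the 22 whose symbol begins with Mmp. All 10 were measured and all 10 are reported. The tumors were KPC tumors, a mouse model of pancreatic ductal adenocarcinoma, grown orthotopically in the pancreas. One sample came from tumors treated with EIPA at 10 mg/kg, a blocker of sodium-proton exchange that inhibits macropinocytosis, and the other from tumors treated with DMSO, its solvent. In each, 4 flash-frozen tumors were pooled before fixation, so a sample holds no separate animals, and the labels do not say whether the tumor cells were 1 line or clone. Both samples share 1 count matrix, whose barcodes end in a library number that no label ties to a treatment. Every value is therefore given for library 2 and library 1, a ratio is library 2 over library 1, and no value has a treatment direction.

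Library 2 held 11945 cells with a median of 10756 unique molecular identifiers (UMIs) per cell, and library 1 held 12337 cells with a median of 11695. After filtering, 10785 and 11115 cells remained. They were assigned to 2 tumor-cell classes (5660 and 5727 Epcam-low tumor cells, 2673 and 3394 epithelial tumor cells), fibroblasts (458 and 374), pericytes (55 and 62), blood endothelial cells (140 and 168), macrophages or monocytes (682 and 563), dendritic cells (232 and 77), neutrophils (158 and 134) and T or NK cells (330 and 122), in library 2 and library 1. A level is the gene's summed UMIs in a class, scaled to equal class totals as counts per 1e6 UMIs (CPM), with an exact Poisson 95% interval in parentheses. With 1 library on each side, cells are not replicates, so there is no test, and intervals cover counting error only. Markers of tumor cells were read in every other class. The median of 18 of them stood at 24.0% (macrophages) to 58.1% (neutrophils) of its tumor-cell level in library 2. In library 1 it stood at 26.4% (fibroblasts) to 61.0% (T or NK cells). Expression of these markers by the other classes themselves was not separated from tumor-cell RNA. Values with tumor-cell RNA subtracted, given below, treat the whole marker share as tumor-cell RNA. The libraries share 225 barcode sequences.

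Matrix metalloproteinases are zinc proteases that are made as inactive precursors and cut collagens, basement membrane, elastin, growth factors and other proteases. In pancreatic cancer, whose stroma is dense in collagen, they have been studied as products of tumor cells, fibroblasts and infiltrating leukocytes. Collagenases such as Mmp13 cut intact fibrillar collagen. Gelatinases (Mmp2 and Mmp9) degrade the unwound product and type IV collagen, stromelysins (Mmp3, Mmp10) and the matrilysin Mmp7 cut a broad range of matrix proteins, and the membrane-anchored Mmp14 activates Mmp2 at the cell surface together with the inhibitor Timp2. Because the assay reads probe pairs that differ between genes, levels are compared between cells for 1 gene and not between genes.

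Of the 10 genes, 5 lie in 1 gene cluster on chromosome 9 of the mouse genome (GRCm38): Mmp13, Mmp12, Mmp3, Mmp10 and Mmp7, within 427 kb (7272514 to 7699585) that hold 10 genes of the family. The other members lie on chromosome 2 (Mmp9, 164940780 to 164955850), chromosome 8 (Mmp2, 92827291 to 92853420), chromosome 10 (Mmp11, 75923222 to 75936496, and Mmp19, 128790910 to 128800824) and chromosome 14 (Mmp14, 54431612 to 54445364). All 10 are protein-coding, and their IDs match the annotation. On the opposite strand, Mmp12 overlaps Mmp1b, Mmp11 overlaps Chchd10 and Mmp19 overlaps Tmem198b. Mmp1b stood at 0.0199 and 0.0206 CPM in the class where it was highest.

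The 5 genes on chromosome 9 are shown because their proximal promoters share short motifs while their RNA, described below, was found in different lineages. The stretches are the 100 bases before a RefSeq start site (GRCm38.p6, plus strand): chr9:7272414-7272513 for Mmp13, chr9:7347274-7347373 for Mmp12, chr9:7445722-7445821 for Mmp3, chr9:7502242-7502341 for Mmp10 and chr9:7691990-7692089 for Mmp7. Mmp12 and Mmp7 have a second window each, not printed, that holds neither motif. The Mmp12 stretch lies inside the annotated gene, before its second start. Capitals mark TGAGTCA or its reverse complement TGACTCA, the site bound by AP-1 factors, and TATAAA, the TATA box.
Mmp13: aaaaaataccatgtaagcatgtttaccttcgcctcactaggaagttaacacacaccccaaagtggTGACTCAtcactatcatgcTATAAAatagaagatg
Mmp12: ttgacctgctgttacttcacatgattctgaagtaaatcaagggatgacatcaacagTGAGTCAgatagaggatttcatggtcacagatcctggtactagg
Mmp3: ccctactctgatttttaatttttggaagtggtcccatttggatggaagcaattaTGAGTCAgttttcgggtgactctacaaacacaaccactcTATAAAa
Mmp10: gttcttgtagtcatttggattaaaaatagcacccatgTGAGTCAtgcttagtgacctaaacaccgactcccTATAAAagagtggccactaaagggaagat
Mmp7: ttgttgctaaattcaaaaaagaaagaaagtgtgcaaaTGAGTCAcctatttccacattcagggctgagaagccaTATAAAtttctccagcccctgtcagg
The AP-1 letters begin 35 bases before the start in Mmp13 (reverse complement), 44 in Mmp12, 46 in Mmp3, 63 in Mmp10 and 63 in Mmp7. TATAAA begins 16, 7, 29 and 26 bases before the start in Mmp13, Mmp3, Mmp10 and Mmp7, and was not found in the Mmp12 stretch. Searched on both strands, the AP-1 letters occur in the 250 bases before the start in 4.46% of 32851 RefSeq promoter windows and TATAAA in 12.4%. In the last 100 bases the shares are 1.88% and 5.56%, and 0.149% of windows hold both. The motifs do not overlap each other. The windows of Mmp11 and Mmp14 hold neither motif. A match is a description of the letters only.

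Metalloproteinase RNA was divided among lineages, and most genes had the same leading lineage in both libraries. Mmp2, Mmp14 and Mmp19 were highest in fibroblasts, Mmp12 in macrophages or monocytes, Mmp9 in neutrophils, Mmp11 in pericytes with fibroblasts next, and Mmp13 in Epcam-low tumor cells. These 7 genes, and Mmp10 in pericytes on few UMIs, made up the 8 of 10 with the same highest class in each library. Mmp3 and Mmp7 were highest in tumor cells in library 1 but not in library 2. All 10 reached 20 CPM in a class of both libraries. The 2 exceptions and Mmp10 rested on few cells: when the 3 cells with the most UMIs of a gene were left out of each class and library, all 10 genes had the same highest class in both libraries, and Mmp3, Mmp7, Mmp10 and Mmp13 were highest in tumor cells. Leaving out 3 cells lowers small classes most. For Mmp10, 3 cells held 93.8% and 90.9% of the UMIs of pericytes but 2.82% and 9.09% of those of Epcam-low tumor cells. The setting therefore cannot decide which class was higher.

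**Figure D1:**
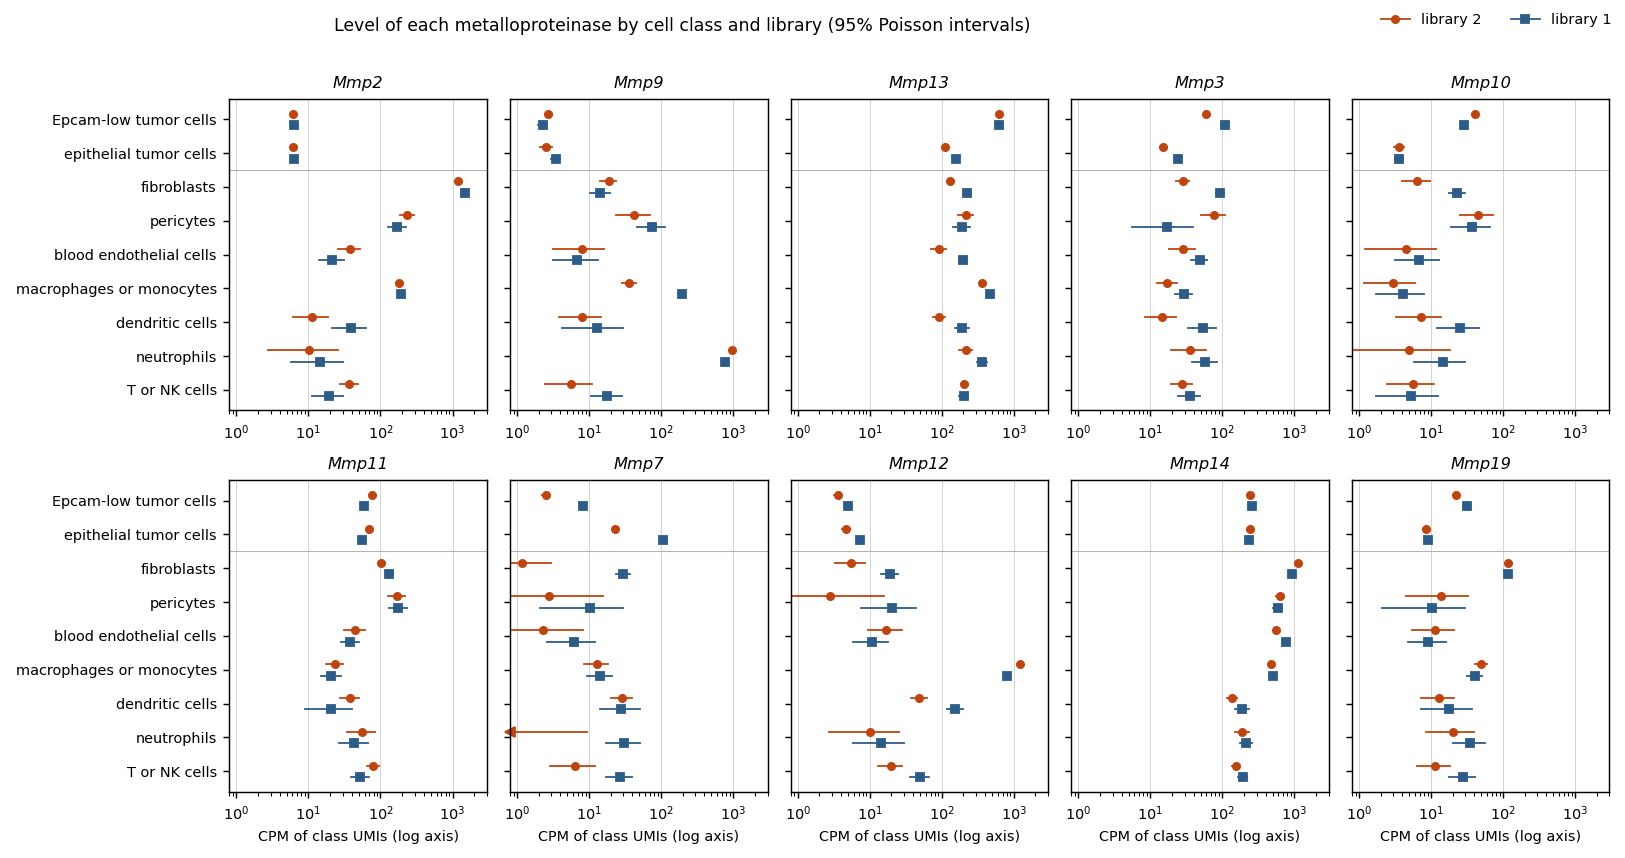
Level of each metalloproteinase in 9 cell classes, as CPM of the class's UMIs on a log axis, with library 2 above library 1 and bars for exact Poisson 95% intervals (counting error only); a triangle at the left edge marks 0 UMIs. Fibroblasts stand furthest right for Mmp2 (1183 and 1474 CPM), macrophages for Mmp12 (1222 and 799 CPM), neutrophils for Mmp9 (960 and 766 CPM) and Epcam-low tumor cells for Mmp13 (615 and 627 CPM).

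The class with the highest level was not always the class with the most RNA, since tumor cells outnumbered all others. Over all genes, Epcam-low tumor cells held 100653958 and 96901496 UMIs and epithelial tumor cells 43967580 and 57844763, in library 2 and library 1. Fibroblasts, the next of the 9 classes, held 3423302 and 2787575 UMIs. A large tumor-cell share of a gene is therefore not in itself a higher level in tumor cells. Tumor cells held 96.1% and 94.0% of all Mmp13 UMIs, 94.7% and 93.7% of Mmp3, 98.2% and 93.9% of Mmp10 and 92.1% and 91.1% of Mmp11, in library 2 and library 1. The Mmp11 share was close to the tumor-cell share of the UMIs of all genes, and the Mmp13, Mmp3 and Mmp10 shares were above it. Tumor cells also held 83.5% and 85.7% of Mmp14 and 80.5% and 85.4% of Mmp19. These shares were below that of all genes, and fibroblasts had the higher level of both. The opposite held for Mmp2, of which tumor cells carried 15.7% and 17.0% and fibroblasts 72.4% and 71.7%.

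**Figure D2:**
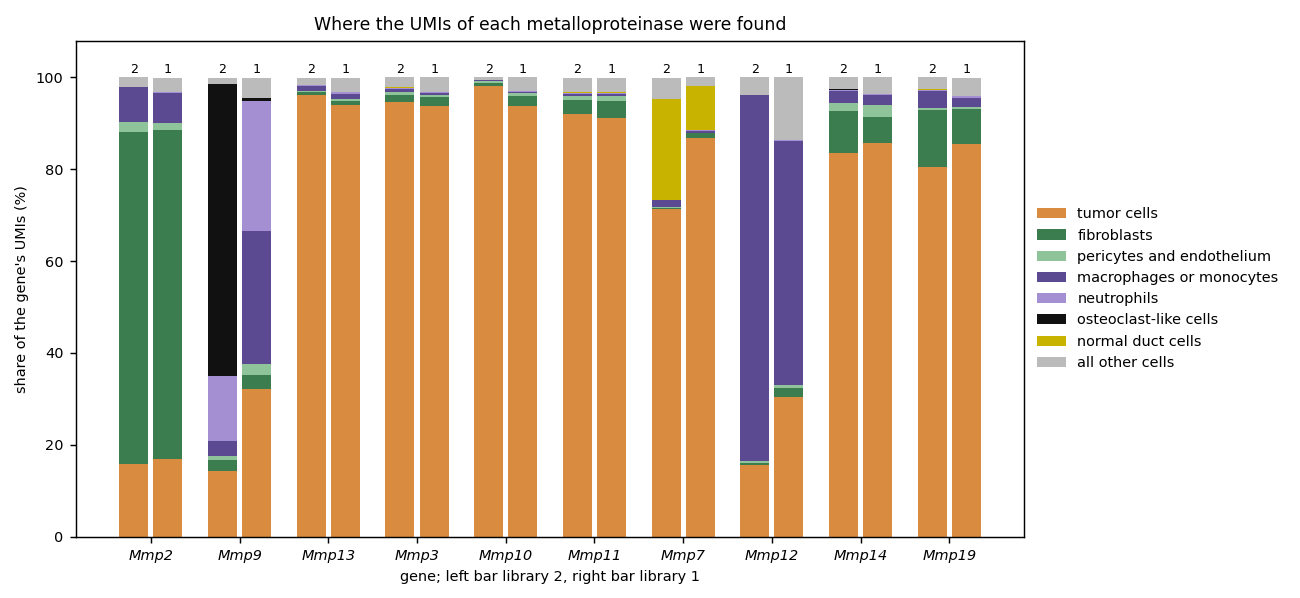
Share of each gene's UMIs, in percent, found in each group of cells, with library 2 as the left bar and library 1 as the right bar of each pair. Tumor cells hold over 80% of Mmp13, Mmp3, Mmp10, Mmp11, Mmp14 and Mmp19 in both libraries, while 8 osteoclast-like cells hold 63.5% of Mmp9 in library 2. Tumor cells also hold most UMIs of all genes together, so a large share is not in itself a higher level.

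Mmp13, the main interstitial collagenase of the mouse, was highest in Epcam-low tumor cells, the tumor clusters that did not pass the rule for epithelial markers. It stood at 615 CPM (610 to 620) in library 2 and 627 CPM (622 to 632) in library 1 in Epcam-low tumor cells, a log2 ratio of -0.03. Epithelial tumor cells were lower, at 112 and 156 CPM. At least 1 Mmp13 UMI was found in 78.0% and 79.8% of Epcam-low tumor cells, with medians of 14435 and 13733 UMIs per cell. In T or NK cells, which are not known to make it, the share was 28.5% and 41.0%, at medians of 1818 and 2730.5 UMIs per cell. The 10% of Epcam-low tumor cells with the most Mmp13 held 53.4% and 52.5% of the class's Mmp13, with up to 244 and 268 UMIs in 1 cell.

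Macrophages or monocytes followed with 364 CPM (340 to 389) and 466 CPM (436 to 497) of Mmp13. That is 78.8% and 103% of the level in all tumor cells, while the tumor-cell markers stood there at 24.0% and 31.2% of theirs. With tumor-cell RNA subtracted at the marker share, macrophages kept 253 and 325 CPM, pericytes 74.8 and 41.4 CPM, fibroblasts 1.14 and 105 CPM, neutrophils 0 and 115 CPM, endothelial cells 0 and 60.9 CPM, and T or NK cells and dendritic cells 0 in both libraries. Dendritic cells had 92.5 and 192 CPM before subtraction and endothelial cells 90.5 and 196 CPM. In the macrophage cluster led by Gpnmb and Arg1, Mmp13 was at 377 and 750 CPM, and in the cluster led by Apoe and C1q genes at 363 and 426 CPM.

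Among tumor cells the spread of Mmp13 was wide. Over 15 tumor clusters made without the protease and inhibitor genes, it ran from 75.2 CPM (cluster 17, cycling epithelial cells) to 1001 CPM (cluster 7) in library 2, and from 96.6 CPM (cluster 12) to 897 CPM (cluster 13) in library 1. The 5 epithelial clusters were the 5 lowest in both libraries. Cluster 7, led by the metallothioneins Mt1 and Mt2, stood at 1001 and 474 CPM, and cluster 13, led by cell cycle genes such as Top2a, at 819 and 897 CPM. Cluster 14, led by Apoc2, Cck and the hyaluronan synthase Has2, stood at 533 and 885 CPM, and cluster 1, led by Chsy3 and the squamous gene Ivl, at 457 and 777 CPM. Cluster 1 held 54.7% of the tumor-cell Mmp13 of library 1 with 31.7% of the tumor-cell UMIs, and cluster 7 held 28.8% of that of library 2 with 13.3% of the UMIs.

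The clusters were unevenly shared. Cluster 7 had 968 cells in library 2 and 138 in library 1, cluster 14 had 569 and 36, cluster 13 had 527 and 178, cluster 24 had 205 and 36, and cluster 1 had 720 and 2236, so a cluster mostly of 1 library may be that library and not a cell state. Mmp13 over all tumor cells was 462 and 451 CPM. When the clusters of library 2 were weighted by the cluster shares of library 1, a calculation chosen after the data were seen, it was 305 CPM in library 2 against 451 CPM in library 1, a log2 ratio of -0.56. Mmp13 was higher in library 2 in 3 of the 15 clusters.

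**Figure D3:**
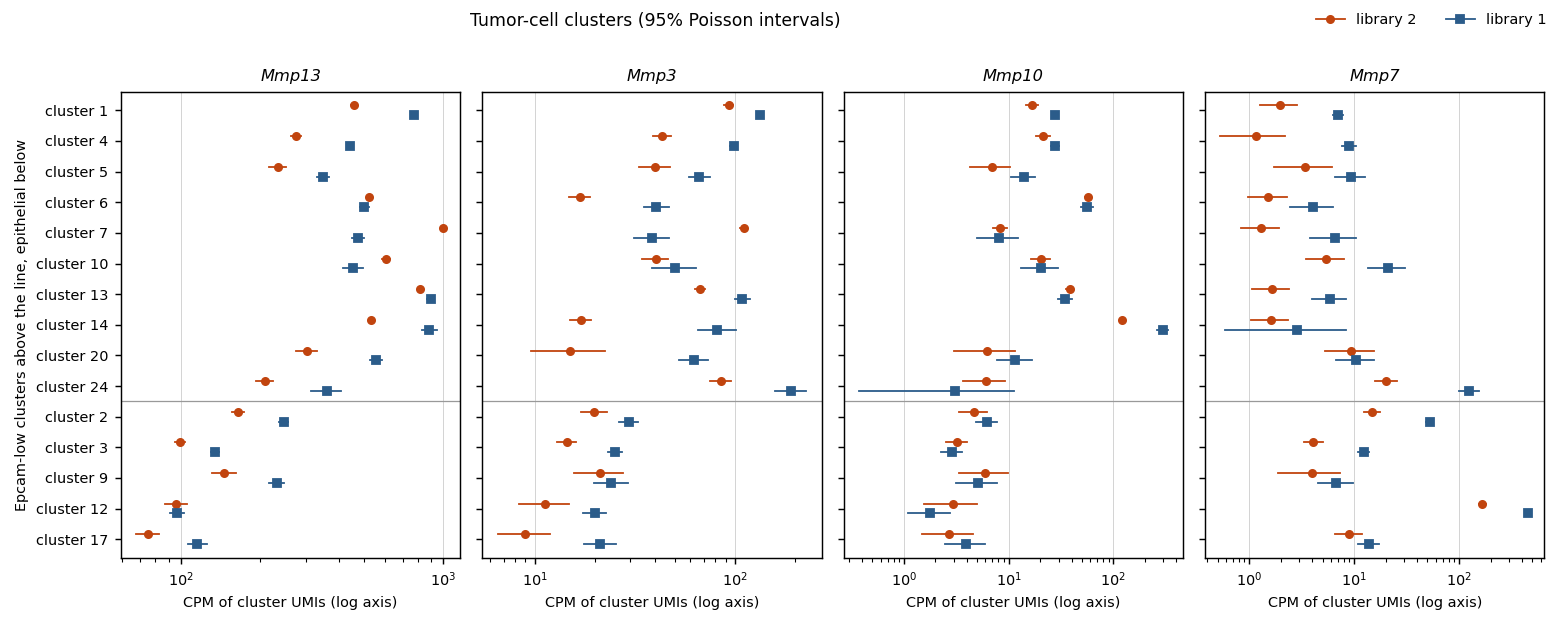
Level of Mmp13, Mmp3, Mmp10 and Mmp7 in 15 tumor-cell clusters, as CPM of the cluster's UMIs on log axes that differ between panels, with library 2 above library 1 and exact Poisson 95% intervals. The 5 epithelial clusters under the line are lowest for Mmp13, cluster 14 is highest for Mmp10 (120 and 295 CPM) and cluster 12 for Mmp7 (167 and 450 CPM).

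Mmp3, stromelysin-1, which cuts proteoglycans and laminin and activates other MMPs, was also mainly a tumor-cell product. Epcam-low tumor cells had 59.2 CPM (57.7 to 60.7) in library 2 and 110 CPM (108 to 113) in library 1, a log2 ratio of -0.89. The intervals lay apart and the level was lower in library 2. Epithelial tumor cells were lower, with intervals of 13.8 to 16.2 CPM and 23.4 to 25.9 CPM. Neutrophils (35.2 and 57.8 CPM), endothelial cells (28.3 and 48.2 CPM) and T or NK cells (27.5 and 35 CPM) stood above these. With tumor-cell RNA subtracted at the marker share, they kept 8.61 and 15.1 CPM, 15.5 and 24.8 CPM, and 4.76 and 0 CPM. Pericytes had 75.5 CPM in library 2 and 17.0 CPM in library 1, from 27 and 5 UMIs in 8 and 4 cells, and 3 cells held 77.8% of the 27. Fibroblasts had 28.3 CPM (23.0 to 34.6) and 92.9 CPM (81.9 to 105), where 3 cells held 35.1% and 40.9% of the UMIs.

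Within tumor cells Mmp3 was lower in library 2 in 14 of 15 clusters, and over 2-fold lower in 6. The exception was cluster 7, with 111 CPM in library 2 and 38.7 CPM in library 1. Cluster 1 had 93.1 and 134 CPM and cluster 24, led by the complement genes C1s1 and C3, had 85.0 and 190 CPM. The cycling cluster 13 had 66.9 and 109 CPM. At the cluster shares of library 1, all tumor cells had 48.9 CPM in library 2 against 78.4 CPM in library 1 (log2 -0.67).

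Mmp10, stromelysin-2, an activator of procollagenases, reached its highest level in the same tumor cluster of both libraries. Epcam-low tumor cells had 40.6 CPM (39.3 to 41.8) and 29.1 CPM (28.0 to 30.2), and epithelial tumor cells 3.57 and 3.61 CPM. Cluster 14 had 120 and 295 CPM and cluster 6, led by Il11 and Aqp3, had 57.7 and 56.3 CPM, in library 2 and library 1. The cycling cluster 13 followed with 38.3 and 34.4 CPM, and the order of these 3 clusters was the same in both libraries. Cluster 14 held 44.0% of the tumor-cell Mmp10 of library 2 and 10.2% of that of library 1, where it had 36 cells and where cluster 1 held 44.8% at 27.6 CPM. The nominal highest class, pericytes (44.7 and 37.5 CPM), rested on 16 and 11 UMIs in 4 cells each, and its intervals overlapped those of Epcam-low tumor cells.

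Mmp11, stromelysin-3, described in human carcinomas as a gene of the stroma next to tumor cells, was found in all classes. Pericytes had 168 CPM (128 to 216) and 177 CPM (132 to 232), fibroblasts 102 CPM (91.8 to 114) and 133 CPM (120 to 147), and all tumor cells 73.4 and 57.6 CPM. The pericyte and fibroblast intervals lay apart in library 2 and overlapped in library 1. The pericyte values came from 60 and 52 UMIs in 28 cells each. Macrophages had the lowest level in library 2 (23.2 CPM) and stood with dendritic cells at 20.7 and 20.5 CPM in library 1. With tumor-cell RNA subtracted at the marker share, pericytes kept 145 and 158 CPM and fibroblasts 81.9 and 118 CPM. Macrophages then had 5.61 and 2.76 CPM, dendritic cells 6.59 and 0 CPM, and neutrophils 12.7 and 11.9 CPM. T or NK cells had 42.5 and 16.8 CPM and endothelial cells 23.6 and 21 CPM. In tumor cells Mmp11 was higher in library 2 in 14 of 15 clusters, none by 2-fold, and the highest cluster was number 24 in both (121 and 102 CPM).

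Mmp2, gelatinase A, marked fibroblasts. It stood at 1183 CPM (1147 to 1220) in library 2 and 1474 CPM (1429 to 1519) in library 1, with a UMI in 79.5% and 85.0% of fibroblasts. Without doublet removal the level was 748 and 791 CPM. Pericytes had 232 CPM (185 to 288) and 170 CPM (126 to 224), and macrophages or monocytes 180 CPM (163 to 198) and 194 CPM (175 to 214). These 2 classes changed places between libraries, and their intervals overlapped in both. In pericytes the median of 10 fibroblast markers stood at 19.6% and 28.6% of its fibroblast level. The part of fibroblast RNA in the Mmp2 of pericytes was not tested. Tumor cells had 6.08 and 6.28 CPM, and Mmp2 there did not exceed 13.5 CPM in any of the 15 clusters. In fibroblasts the ratio was -0.32, with intervals apart.

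Mmp9, gelatinase B, which neutrophils store in granules and osteoclasts secrete, was highest among the 9 classes in neutrophils. They had 960 CPM (866 to 1062) in library 2 and 766 CPM (690 to 849) in library 1, from 382 and 371 UMIs. The level was 546 CPM in library 2 without doublet removal, 466 CPM in library 1 with at least 1000 UMIs per cell, and 1790 and 2200 CPM when shares of single cells were averaged. Thinning to 1000 UMIs gave 1730 CPM in library 2. A Mmp9 UMI was found in 63.3% and 74.6% of neutrophils, whose median depth was 1056 and 1175 UMIs per cell. In Epcam-low tumor cells the share was 4.05% and 3.20%. The direction between libraries depended on the processing: the log2 ratio was 0.32, but -0.43 without doublet removal and -0.30 when the shares of single cells were averaged.

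Most Mmp9 of library 2 lay outside these classes. A group of 8 cells in library 2 and 1 cell in library 1, all in the Gpnmb and Arg1 macrophage cluster, had at least 8 UMIs and 1000 CPM of both Ctsk (cathepsin K) and Acp5 (tartrate-resistant acid phosphatase). They carried 4 to 8 of 9 osteoclast markers in library 2 and 4 of 9 in library 1, Ctsk and Acp5 included, and are called osteoclast-like. Nfatc1, a transcription factor of osteoclasts, had a UMI in each of them, and Dcstamp, which serves their fusion, in all but 1. Calcr, also on the list, had no UMI in any of them, and Oscar and Itgb3 were each missing from several. The rule used neither Mmp9 nor any other protease of the family, and was set after the cells had been seen. The 8 cells held 627, 333, 257, 223, 140, 71, 30 and 24 Mmp9 UMIs and the single cell of library 1 held 8. This is 1705 of 2684 Mmp9 UMIs in library 2 (63.5%) against 8 of 1306 in library 1 (0.613%), while neutrophils held 14.2% and 28.4%. These cells had no UMI of Mmp12 or of the neutrophil gene S100a9. Mmp14 was at 1180 CPM in library 2, from 88 UMIs. In the single cell of library 1, which held 1224 UMIs in all, it was 1 UMI (817 CPM, interval 20.7 to 4552).

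**Figure D4:**
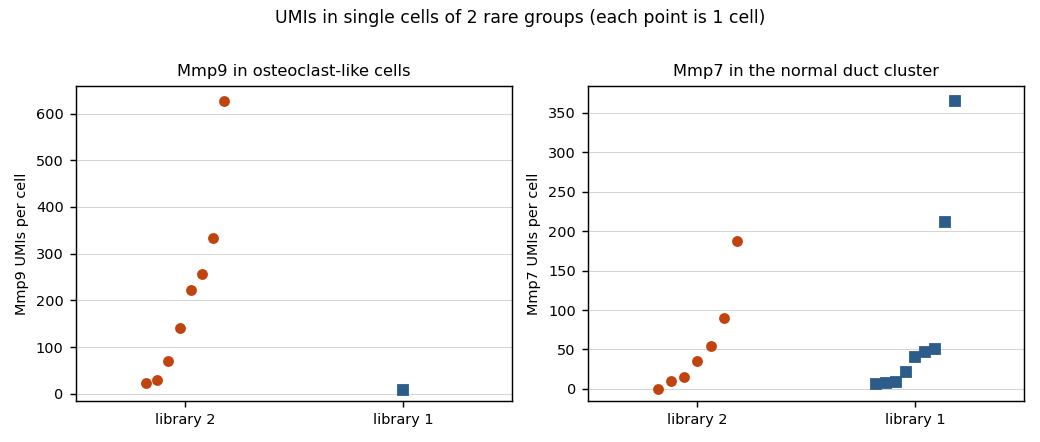
UMIs in single cells, each point 1 cell, with library 2 left of library 1. Mmp9 in osteoclast-like cells runs from 24 to 627 UMIs in library 2 and is 8 in the single cell of library 1, and Mmp7 in the normal duct cluster runs from 0 to 187 and from 6 to 365 UMIs.

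In the remaining macrophages or monocytes Mmp9 was at 36.3 CPM in library 2 and 192 CPM in library 1, a log2 ratio of -2.37 that rested on few cells. A UMI was found in 29 cells of each library. The 3 highest cells had 21, 6 and 6 UMIs in library 2 and 139, 90 and 20 in library 1, and held 38.4% and 65.7% of the class's Mmp9. The cells with 139 and 90 UMIs had 36 and 7 UMIs of C1qa and 0 of S100a9 and Ctsk, and the cell with 90 had 2 UMIs of S100a8 and 1 of Csf3r, both neutrophil genes.

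Mmp7, matrilysin, a small MMP without the hemopexin domain that is made by epithelia, was read mainly from epithelial tumor cells. They had 23.2 CPM (21.8 to 24.7) in library 2 and 105 CPM (103 to 108) in library 1. The log2 ratio was -2.13, and the level was lower in library 2 in all 15 tumor clusters, over 2-fold in 10. Cluster 12, led by the mucosal defense genes Pigr, Ltf and Reg3b, had 167 and 450 CPM from 226 and 575 cells, and held 58.1% and 73.4% of the tumor-cell Mmp7. No other cluster passed 20.3 CPM in library 2 or 125 CPM in library 1, both in cluster 24. At the cluster shares of library 1, tumor cells had 15.6 CPM in library 2 against 44.5 CPM in library 1 (log2 -1.46).

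Mmp7 was uneven between cells as well. In library 2 a UMI was found in 6.32% of epithelial tumor cells and 3 cells with 276, 80 and 37 UMIs held 38.5% of the UMIs, and in library 1 the values were 15.7%, with 3 cells of 292, 257 and 253 UMIs holding 13.2%. In library 2 the highest class was nominally dendritic cells (28.7 CPM), from 36 UMIs of which 3 cells held 86.1%, with an interval (20.1 to 39.7) that overlapped that of epithelial tumor cells.

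The highest Mmp7 levels of all were in 7 and 9 cells named normal duct cells, from 4 of 6 duct markers. Of 22 tumor-cell markers 14 also passed in them, and the duct genes Cftr (81.5 and 47.6 CPM against 240 and 181 CPM in epithelial tumor cells) and Krt19 (525 and 799 CPM against 2551 and 2610 CPM) were lower than in tumor cells. They had 3551 CPM (3209 to 3921) and 4004 CPM (3724 to 4300), with 187, 90, 54, 36, 15, 10 and 0 UMIs per cell in library 2 and 365, 211, 51, 47, 40, 21, 9, 7 and 6 in library 1. These few cells held 21.9% of the Mmp7 UMIs of library 2 and 9.54% of those of library 1. Their leading gene Sctr, the secretin receptor of duct cells, stood at 435 and 513 CPM against 0.091 and 0.432 CPM in epithelial tumor cells. Msln, a gene of pancreatic tumor cells, stood at 181 and 58.2 CPM against 1567 and 1509 CPM.

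Mmp12, the macrophage elastase, which degrades elastin, was highest in macrophages or monocytes, which held 79.6% and 53.2% of its UMIs. They had 1222 CPM (1178 to 1268) in library 2 and 799 CPM (760 to 839) in library 1. This level depended on which cells were counted: it was 362 and 187 CPM without doublet removal, 827 and 341 CPM at the lower cluster resolution of 0.5, 813 and 325 CPM with the unnamed and mixed clusters joined, 744 and 705 CPM when shares of single cells were averaged and 778 and 570 CPM without the 3 highest cells. Macrophages or monocytes stayed the highest class in each of these. Dendritic cells were second, at 48.6 and 153 CPM, and most of that lay in cluster 27 (44 of 61 and 53 of 60 UMIs). Tumor cells had 3.92 and 5.85 CPM. At medians of 2363.5 and 2084 UMIs per cell, 203 of 682 and 171 of 563 macrophages had a Mmp12 UMI. The highest held 490, 393 and 198 in library 2 and 179, 172 and 168 in library 1, and the 10% of cells with the most held 90.2% and 85.6% of the UMIs. The 2 macrophage clusters stood in opposite order, at 1255 and 656 CPM in the Apoe and C1q cluster and at 834 and 1828 CPM in the Gpnmb and Arg1 cluster.

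Mmp14, a membrane-type MMP that cuts collagen at the cell surface and activates Mmp2, was found in all classes and was highest in fibroblasts. They had 1124 CPM (1089 to 1160) in library 2 and 912 CPM (876 to 948) in library 1. Pericytes had 626 and 586 CPM, blood endothelial cells 562 and 762 CPM, macrophages or monocytes 470 and 505 CPM, and all tumor cells 241 and 250 CPM. Pericytes and endothelial cells exchanged the second place between libraries, and their intervals overlapped in library 2 only. T or NK cells, dendritic cells and neutrophils were lowest, at 137 to 189 CPM in library 2 and 189 to 213 CPM in library 1. With tumor-cell RNA subtracted at the marker share, they kept 34.8 and 39.4 CPM, 35.8 and 70.5 CPM, and 48.7 and 76.2 CPM. Over the tumor clusters Mmp14 varied little, between 158 and 338 CPM in library 2 and between 152 and 374 CPM in library 1, with cluster 24 highest and cluster 5 lowest in both.

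Mmp19, an MMP that cuts basement membrane proteins, had a low level that was highest in fibroblasts, at 117 CPM (106 to 129) in library 2 and 118 CPM (106 to 131) in library 1, where it was 72.3 CPM without doublet removal. Macrophages or monocytes were second, at 49.8 CPM (41.2 to 59.7) and 40.5 CPM (32.1 to 50.4). Epcam-low tumor cells had 22.1 and 31.7 CPM and epithelial tumor cells 8.67 and 8.97 CPM. In tumor cells cluster 1 held 21.5% and 55.6% of Mmp19, at 40.3 and 40.6 CPM, while the epithelial clusters 12 and 17 were among the lowest.

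The 4 stromal genes were not spread evenly over fibroblasts, which were clustered again into 6 sub-clusters. Sub-cluster 4 (59 and 58 cells), with Ccn3, the contractile gene Cnn1 and the epithelial genes Reg3b and Pigr among its leading genes, had the highest Mmp2 in both libraries, 2256 and 3007 CPM, and 1692 and 1211 CPM of Mmp14. Its Mmp14 interval overlapped that of sub-cluster 2 (1603 and 1243 CPM) in both libraries. Sub-cluster 1 (113 and 178 cells), whose leading genes include Lrrc15, a gene of myofibroblastic fibroblasts, had 1540 and 1965 CPM of Mmp2 and the highest Mmp11, 150 and 184 CPM, with intervals that overlapped those of sub-cluster 4. Sub-cluster 3, led by stress genes such as Trib3, sub-cluster 5, in which tumor-cell markers stood at 51.7% and 44.6% of their tumor level, and sub-cluster 6, which carries the dendritic genes Ccr7 and Ccl22, had lower levels of Mmp2, from 615 to 757 CPM in library 2 and from 658 to 782 CPM in library 1. The part of admixed RNA in these levels was not tested. Mmp2 and Mmp14 were higher in each of sub-clusters 1, 2 and 4 than in each of 3, 5 and 6, in both libraries. The summed level of the listed myofibroblastic genes was 10189 and 20271 CPM in sub-cluster 4 and 10788 and 15426 CPM in sub-cluster 1, but 4555 and 5674 CPM in sub-cluster 2, the lowest of the 6 in library 1.

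**Figure D5:**
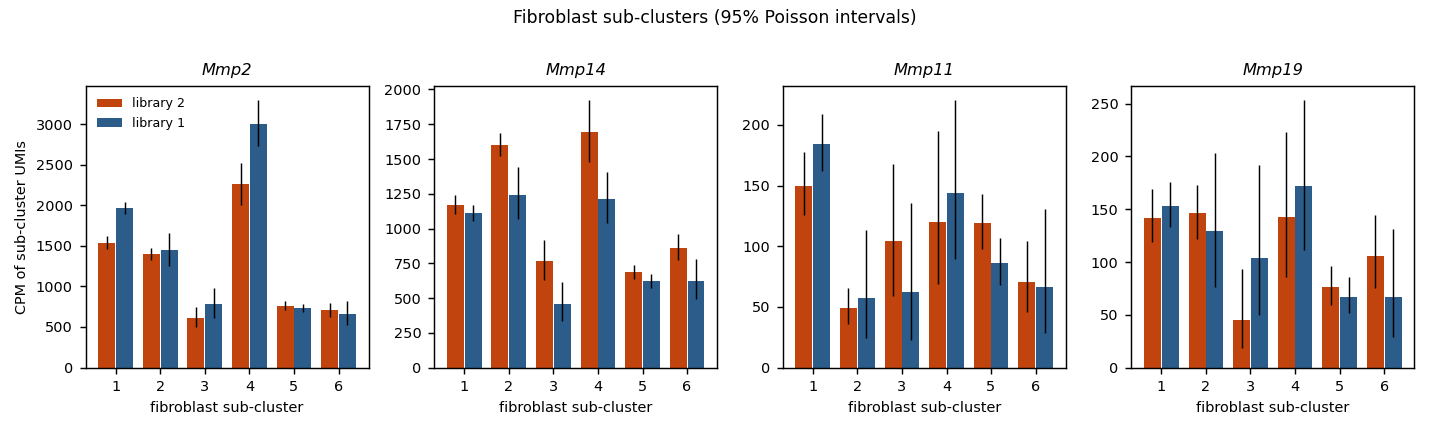
Level of Mmp2, Mmp14, Mmp11 and Mmp19 in 6 fibroblast sub-clusters, as CPM of the sub-cluster's UMIs, with library 2 left of library 1 and exact Poisson 95% intervals. Mmp2 is highest in sub-cluster 4 (2256 and 3007 CPM) and Mmp11 in sub-cluster 1 (150 and 184 CPM).

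Between the libraries, 1 of the 10 genes differed by over 2-fold in its highest class with at least 20 CPM in 1 library. This was Mmp7 in epithelial tumor cells, where 0.368% of all 8687 genes that reached 20 CPM did so. Of the members that reached 20 CPM in Epcam-low tumor cells, 0 of 6 passed 2-fold (1.31% of all genes). The log2 ratio in the highest class was 0.61 for Mmp12, 0.32 for Mmp9, 0.30 for Mmp14, -0.32 for Mmp2, -0.03 for Mmp13 and -0.01 for Mmp19. Mmp10 (0.25, interval -0.94 to 1.51), Mmp11 (-0.08, interval -0.64 to 0.49) and Mmp19 (interval -0.23 to 0.20) had intervals that span 0, so a difference was not detectable at this depth.

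In other classes the members past 2-fold were mostly lower in library 2. In fibroblasts 3 of 8 were (Mmp3, Mmp7 and Mmp10; 2.35% of all genes), with a median log2 ratio of -0.58 over the 8 against 0.02 over all genes. In dendritic cells 5 of 8 were (Mmp2, Mmp3, Mmp10, Mmp12 and Mmp13; 6% of all genes), with medians of -1.34 and 0.01. In T or NK cells 3 of 8 were (Mmp7, Mmp12 and Mmp19; 3.35%), in endothelial cells 1 of 5 (Mmp13; 3.71%), in macrophages or monocytes 1 of 8 (Mmp9; 1.28%) and in neutrophils 1 of 7 (Mmp7; 10.4%). In pericytes Mmp3 was higher and Mmp12 lower in library 2, 2 of 8 (12.7%). A member that reached 20 CPM through 1 library alone had to differ, so these counts and medians describe the members only. Library 1 alone brought in Mmp2, Mmp3 and Mmp10 in dendritic cells and Mmp7 and Mmp10 in fibroblasts, which lowers both medians.

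Several of these differences were in genes that tumor cells also held and rested on few UMIs or cells. The Mmp7 of fibroblasts, 4 UMIs in library 2 and 83 in library 1, lay to 77.1% in 3 cells of library 1, and the Mmp10 of fibroblasts, 22 and 65 UMIs, to 40.9% and 69.2%. The tumor-cell marker share in fibroblasts was 27.7% and 26.4%. Mmp13 in endothelial cells was 90.5 CPM (71.8 to 113) and 196 CPM (173 to 221), with marker shares of 28.0% and 29.9%. The part of tumor-cell RNA in these differences was not tested. Dendritic counts were low, with 14 and 15 UMIs of Mmp2, 18 and 21 of Mmp3 and 9 and 10 of Mmp10. Cluster 27 made up 65 of 232 and 43 of 77 dendritic cells. In dendritic cells Eln stood at 15.1 and 463 CPM and Col1a1 at 166 and 443 CPM. Intervals overlapped for Mmp10 in dendritic cells, Mmp19 in T or NK cells (16 and 26 UMIs) and Mmp12 in pericytes (1 and 6 UMIs). The Mmp7 of neutrophils was 0 and 15 UMIs, the 15 in 2 cells. In T or NK cells Mmp7 had 9 and 25 UMIs, of which 3 cells held 66.7% and 76%. Mmp12 there had 28 and 47 UMIs, of which 3 cells held 60.7% and 91.5%. The median of 11 macrophage markers stood in T or NK cells at 10.5% and 11.9% of its macrophage level. The part of macrophage RNA in this Mmp12 was not tested.

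The inhibitors of these proteases were mainly stromal. Of 9 inhibitor genes 7 reached 20 CPM in a class of both libraries. The tissue inhibitors Timp1 (1275 and 954 CPM), Timp2 (685 and 623 CPM) and Timp3 (2952 and 2136 CPM) were highest in fibroblasts. Timp2 was also present in Epcam-low tumor cells at 529 and 590 CPM. In fibroblasts 0 of 7 inhibitors passed 2-fold between libraries, where 2.35% of all genes did. Timp3 passed in 5 classes. It was higher in library 2 in epithelial tumor cells (61.4 and 29.3 CPM; 0.368% of all genes), T or NK cells (43.7 and 15.9 CPM; 3.35%) and pericytes (484 and 201 CPM; 12.7%). It was lower in library 2 in dendritic cells (26.3 and 53.7 CPM; 6%) and neutrophils (35.2 and 76.4 CPM; 10.4%), where Timp1 was also lower (90.5 and 188 CPM).

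Of 12 activators of MMP precursors 10 reached 20 CPM in both libraries. In library 2, 5 of these were highest in epithelial tumor cells, 2 in Epcam-low tumor cells and 1 each in macrophages, fibroblasts and endothelial cells. In library 1, 4 were highest in epithelial tumor cells, 1 in Epcam-low tumor cells, 2 in neutrophils and again 1 each in those other classes. Plau, the urokinase that generates plasmin, was highest in macrophages or monocytes (244 and 224 CPM), Plat, the tissue-type activator, in Epcam-low tumor cells (1328 and 1477 CPM), and the membrane serine proteases St14 (54.6 and 88.3 CPM) and Tmprss4 (77.8 and 103 CPM) in epithelial tumor cells. Furin, which activates Mmp11 and Mmp14, stood at 527 and 520 CPM in Epcam-low tumor cells and at 368 and 387 CPM in fibroblasts. In fibroblasts Pcsk5, a furin-like convertase, was lower in library 2 (115 and 269 CPM), the only activator there past 2-fold. The plasmin precursor Plg did not pass 0.292 CPM in any class.

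The matrix substrates had other sources than the tumor-cell proteases. All 12 reached 20 CPM in both libraries with the same highest class. The fibrillar collagen gene Col1a1, whose product Mmp13 and Mmp14 cut, stood at 38220 and 36015 CPM in fibroblasts, and Eln, whose product Mmp12 degrades, at 4900 and 1785 CPM, the only substrate past 2-fold in fibroblasts. The laminin genes Lama3 (159 and 184 CPM) and Lamb3 (169 and 189 CPM) were highest in epithelial tumor cells. Among the other MMP genes, 4 of 12 measured reached 20 CPM in both libraries: Mmp15 in endothelial cells (173 and 227 CPM), Mmp23 in fibroblasts (211 and 179 CPM), Mmp25 in dendritic cells (187 and 228 CPM) and Mmp28, at 84.2 and 67.7 CPM in epithelial tumor cells but highest in pericytes (116 CPM) in library 1. Mmp1a is not in the probe set, and Mmp8, the neutrophil collagenase, did not pass 17.7 CPM in any class.

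Of the 17 other metalloproteases listed, 16 reached 20 CPM in both libraries, with Bmp1, the procollagen C-proteinase, highest in fibroblasts (1745 and 1314 CPM) and Adamts1 in endothelial cells (575 and 802 CPM). All 12 AP-1 and ETS genes did. Fosl1, an AP-1 subunit, was highest in Epcam-low tumor cells, the class with the highest Mmp13, at 93.4 and 62.8 CPM, against 37.8 and 34.8 CPM in epithelial tumor cells and 12.2 and 19.7 CPM in macrophages. Fos had the opposite order in tumor cells, with 40.2 and 60.7 CPM in Epcam-low and 226 and 337 CPM in epithelial tumor cells. Among the 10 binding and clearance genes, the Mmp9 anchor Cd44 was highest in Epcam-low tumor cells (1544 and 1748 CPM) and the uptake receptor Lrp1 in fibroblasts (1710 and 2004 CPM).

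The genes with the most similar profiles were sought over 25 clusters in both libraries, 50 points of log2(CPM + 1) that share libraries and depth, so Pearson's r is a description. Mmp12 was closest to the macrophage genes Cd68 (0.928), Tifab (0.927) and Msr1 (0.924), and Mmp9 to Emilin2 (0.877), Tlr13 (0.869) and the neutrophil receptor Csf3r (0.864). Mmp2 was closest to Spon1 (0.954), Gpx3 (0.929) and Cox6b2 (0.917), and Mmp14 to Ptprm (0.827), Gask1b (0.821) and Pde10a (0.816). Mmp13 was closest to Frmd4a (0.767), Siglec15 (0.735) and Disp2 (0.728), Mmp10 to Stc1 (0.801), Siglec15 (0.781) and Mmd (0.776), and Mmp3 to Pros1 (0.759), Egflam (0.636) and Dkk2 (0.635). The remaining values were Arhgef17 (0.757), Lurap1 (0.745) and Ikbip (0.742) for Mmp11, Hkdc1 (0.725), Nipal2 (0.723) and Clint1 (0.722) for Mmp7, and Tgfbr1 (0.694), Gas1 (0.694) and Tsku (0.692) for Mmp19. Among the members themselves, the highest of 45 pairwise values were 0.72 for Mmp2 with Mmp14 and 0.61 for Mmp10 with Mmp13.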

How the data were processed

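The deposited matrix holds whole-number UMI counts for each gene in each cell. The submitters' processing notes name Cell Ranger 8.0.0 and the build mm10. The assay was probe-based and single-plex, per the labels' protocols. No value was normalized before deposit as far as the files show. Cells with at least 200 genes, 500 UMIs and under 20% mitochondrial UMIs were kept, and the 9.54% of library 2 and 9.87% of library 1 with the highest Scrublet scores were removed as doublets. Cells were clustered with scanpy 1.11.5 (3000 variable genes, 50 components, 15 neighbors, Leiden resolution 1, leidenalg 0.10.2) without 32 MMP and inhibitor genes, giving 31 clusters. A cluster was named when at least 3 markers reached 20 CPM and a fold of 2 and the mean log2 fold of its list reached 1. Tumor clusters needed 3 markers at a fold of 1.5 over the mean of the clusters already named, and epithelial ones 3 of their epithelial markers at a fold of 2, rules chosen after the clusters were seen. The remaining tumor clusters were called Epcam-low, and Epcam itself was not required to be low. Classes and tumor clusters of fewer than 30 cells in a library, an unnamed cluster (281 and 225 cells) and a mixed macrophage and tumor cluster (91 and 247 cells) were not ranked. UMIs were summed per class and library as CPM, and ratios are log2 of CPM plus 1. Fibroblasts were clustered again on 2000 variable genes, 30 components and resolution 0.5.

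The members, lists and rules were chosen with earlier results of these data known. Every member is named; the 3 genes most like each were taken by Pearson's r among genes at 20 CPM in a cluster, and other genes come from the lists and were picked after their values were seen. Promoters and annotation are from RefSeq and GRCm38, and 7 of 10 members matched a promoter window. TMM (edgeR 4.0.16) and median-of-ratios (DESeq2 1.42.0) factors were tried as alternative scalings in R 4.3.3. Some genes of the lists are not reported here.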

Additional observations from a re-analysis of the deposited data

Results flagged for a closer look

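Mmp3 stood out because its difference between the libraries ran in opposite directions in different classes, with Poisson intervals apart. The log2 ratio of library 2 over library 1 was 2.09 in pericytes, -1.83 in dendritic cells and -1.68 in fibroblasts. The difference between these ratios was not tested, since each library is 1 sample. The counts were small: 27 and 5 UMIs in pericytes, 18 and 21 in dendritic cells, and 97 and 259 in fibroblasts.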

How the results depend on the processing

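No paired analysis was possible because each treatment has 1 pooled sample. Of the counts that answer a comparison, 58 values were within 1.5 times the main count and 10 were not. The number of members highest in a tumor-cell class in library 2 alone, 1 in the main setting, was 3 without doublet removal or when shares of single cells were averaged, 2 at resolution 0.5, with protease and inhibitor genes kept in clustering or with cells thinned to 1000 UMIs, and 4 without the 3 highest cells. The number past 2-fold in the highest class, 1 in the main setting, was 2 at resolution 0.5, when shares of single cells were averaged, and when the unnamed and mixed clusters were joined to tumor cells and macrophages, which was chosen after seeing the data. The number with the same highest tumor cluster in both libraries was 4, and 7 at resolution 0.5. Of single log2 ratios, 113 moved by less than their counting interval and 37 by more. That of Mmp9, which was not past 2-fold, changed sign to -0.43 without doublet removal and -0.30 when shares of single cells were averaged. Those of Mmp11 (-0.12 to 0.55), Mmp13 and Mmp19 (-0.12 to 0.23), near 0 in the main setting, also took either sign. That of Mmp12 ran from 0.08 to 1.27, of Mmp7 from -2.60 to -1.44, of Mmp9 from -0.43 to 0.62 and of Mmp13 from -0.58 to 0.04. Changes of scaling moved the median of all genes by at most 0.06 in size. Low counts limit Mmp10 and Mmp3 outside tumor cells, and the causes of these shifts were not tested.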
